A study of Saccharomyces cerevisiae with 3 samples.

Results

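The Ty1 retrotransposon open reading frames (ORFs) analysed here are 10 listed Gag and Gag-Pol ORFs, out of 6207 ORFs on the array design. The members were taken by their ORF names: YBL005W-A, YJR026W, YML040W, YMR046C and YMR051C for Gag, and YJR027W, YML039W, YML045W, YMR045C and YMR050C for Gag-Pol. They were selected on the log2 ratios of these same 3 arrays, which were known when the list was made, so their values are given as a description and without a test.

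Ty1 is a retrotransposon with long terminal repeats that lives in many near-identical copies in the genome of Saccharomyces cerevisiae. Its full-length transcript serves both as the genome that is reverse transcribed and as the messenger RNA for its proteins. Gag, the product of the TYA frame, forms the shell of the virus-like particle. Gag-Pol, which adds protease, integrase and reverse transcriptase, is made from the same RNA when ribosomes shift frame at the end of TYA. Transcription of Ty1 is known to depend on the activators Ste12 and Tec1 of the mating and filamentation pathway, and it is low in a/alpha diploids.

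RNA came from the yeast strain MID2extWSC1cyt in the BY4741 background, a haploid of mating type a. By its name the strain joins the outer part of the wall sensor Mid2 to the inner part of the sensor Wsc1. Cells were grown in YEPD at 24 °C and each culture was divided. One part received caspofungin, an inhibitor of β-1,3-glucan synthase, at 15 ng/ml and the other was left untreated, and both were collected 2 h later. Treated and untreated RNA were labelled with different dyes and hybridised to the same 2-colour array. The 3 arrays analysed are numbered 1, 2 and 4 in their titles. The caspofungin RNA was in Cy3 on array 1 and in Cy5 on arrays 2 and 4. Per the labels the study used 2 cultures with a dye exchange for each, and array 1 shares its culture with array 2 or array 4. Both arms carry the chimera. The unmodified parent strain was not analysed here.

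Every value is a log2 ratio between treated and untreated RNA, and the deposited table does not state its direction. Array 1 correlated positively with the arrays of opposite dye orientation (Pearson's r = 0.436 with array 2 over 2818 ORFs and 0.394 with array 4 over 745 ORFs, across genes, which are not independent replicates). It was therefore taken as already turned. A positive value reads as higher with caspofungin only if the ratio is treated over untreated, which the correlation cannot show. If array 1 had not been turned, the same correlation would come from a dye effect on each gene. Values are accordingly called positive or negative, as deposited. The arrays measured 3748, 2833 and 855 ORFs in the order 1, 2 and 4, with medians of −0.24, −0.14 and −0.93 and SDs of 0.809, 0.436 and 1.55. Of the markers of the strain, 4 of the 6 a-specific genes had a value on at least 1 array and 0 of the 3 alpha-specific and 0 of the 4 meiosis genes had one, beside 62.4% of all ORFs. Among 4 genes mutated in the BY4741 background, LEU2 and HIS3 had values on arrays 1 and 2, while URA3 and MET17 had none. Whether the strain carries any of these genes, whole or in part, was not checked. A ratio does not show how much RNA a spot bound.

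The RefSeq gene table (assembly R64) places each Gag gene inside the Gag-Pol gene of the same element, at its start. All 5 listed Gag ORFs are 1323 bases long and all 5 listed Gag-Pol ORFs span 5269 bases, so Gag makes up 25.1% of the span. The list holds both ORFs of 4 elements: YMR046C with YMR045C, YMR051C with YMR050C, YML040W with YML039W, and YJR026W with YJR027W. The sources used here do not say what each spot covers. Copies this alike can cross-hybridise, so the ORFs of a class amount to at most 1 observation of that class and not to replicates. Gag and Gag-Pol are also read from the same full-length transcript, so the classes are not observations of separate RNAs.

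Measurement of the Ty1 ORFs was uneven. Of the 10, 3 had a value on all 3 arrays, 3 on a pair of arrays, 2 on 1 array and 2 on no array. The ORFs without any value were the Gag ORFs YMR051C and YJR026W. On array 4 no Gag ORF was measured (0 of 5), whereas 4 of the 5 Gag-Pol ORFs were. On array 1 the counts were 3 Gag and 4 Gag-Pol ORFs, and on array 2 they were 2 and 4. The sources used here do not say why a cell is empty.

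**Figure D1:**
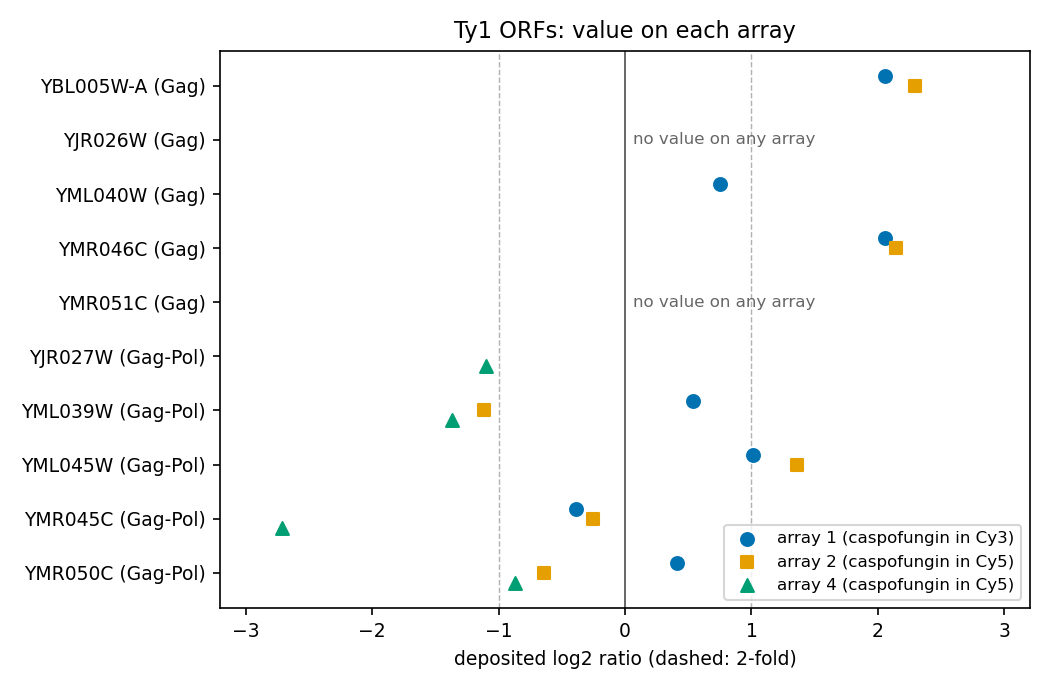
Deposited log2 ratio (horizontal axis) of each listed Ty1 ORF (rows) on arrays 1, 2 and 4; each point is 1 spot value, and dashed lines mark 2-fold. YBL005W-A and YMR046C lie above 2 on arrays 1 and 2, while every value on array 4 is negative.

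Among the Gag ORFs, which encode the particle shell, YBL005W-A had log2 ratios of 2.06 on array 1 and 2.29 on array 2 (mean 2.17 ± 0.17, SD, n = 2 arrays). YMR046C had 2.06 and 2.14 on the same arrays (mean 2.10 ± 0.058, SD, n = 2 arrays). These means equal 4.51-fold and 4.29-fold, and they placed the ORFs 12th and 14th from the top of the 2818 ORFs measured on both arrays. With array 1 turned, the means were 0.12 and 0.041 and the ranks 970 and 1229. As deposited, the values of the 2 Gag ORFs were nearly the same on either array, and these arrays have opposite dye orientations. That is a likeness of treatment ratios only if array 1 was already turned. Arrays 1 and 2 may come from the same culture, so the SD between them may be technical. With each array centred and scaled to equal spread the means became 4.31 and 4.12. YML040W, a Gag ORF of another element, was measured on array 1 alone, at 0.75. That is also positive but below the 2-fold line, at the 91.0th percentile of array 1.

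The Gag-Pol ORFs, which encode the enzymes of the element, did not share a value. YML045W had 1.01 on array 1 and 1.36 on array 2 (mean 1.19 ± 0.25, SD, n = 2 arrays), or 2.28-fold, and ranked 59th of 2818, or 779th at a mean of 0.18 with array 1 turned. It was the one listed Gag-Pol ORF that was positive on both. YMR045C had −0.38, −0.25 and −2.71 on arrays 1, 2 and 4 (mean −1.12 ± 1.38, SD, n = 3 arrays). It was negative on each array, close to the median of arrays 1 and 2 and at the 11.5th percentile of array 4.

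The other Gag-Pol ORFs measured on 3 arrays changed sign between them. YMR050C had 0.41 on array 1, −0.64 on array 2 and −0.87 on array 4 (mean −0.37 ± 0.68, SD, n = 3 arrays). YML039W had 0.54, −1.11 and −1.37 on arrays 1, 2 and 4 (mean −0.65 ± 1.03, SD, n = 3 arrays). Both were positive with caspofungin RNA in Cy3 and negative with it in Cy5. Array 1 minus array 2 was 1.05 for YMR050C and 1.65 for YML039W, at the 96.1st and 99.3rd percentile of that difference over 2818 ORFs (SD 0.651). With array 1 turned the differences were 0.23 and 0.57, at the 42.5th and 61.8th percentile, and those of YBL005W-A and YMR046C were −4.35 and −4.20. With array 1 as deposited, array 1 minus array 2 lay between −0.35 and −0.083 for YBL005W-A, YMR046C, YML045W and YMR045C. YJR027W was measured on array 4 alone, at −1.10, near that array's median.

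The spread among these ORFs was widest on array 2. The 4 listed Gag-Pol ORFs, all with the same span, ranged there from −1.11 for YML039W to 1.36 for YML045W, a range of 2.47. YML039W was 2819th of 2833 ORFs on that array and YBL005W-A was 8th. The SD over the 6 listed ORFs was 1.48 on array 2, where the SD of all ORFs was 0.436. On array 1 the SDs were 0.888 over 7 listed ORFs and 0.809 over all ORFs, and on array 4 they were 0.825 over 4 listed ORFs and 1.55. Spots of other near-identical gene copies were compared as pairs, which is not the same measure as a range over 4 spots. On array 2 EFT1 and EFT2, which encode translation elongation factor 2, differed by 0.064. TEF1 and TEF2, which encode elongation factor 1 alpha, differed there by 0.0058. On array 1 those differences were 0.013 and 0.18, and the Gag-Pol ORFs ranged over 1.40. On array 4 the pair differences were 0.80 and 0.40, and the Gag-Pol ORFs ranged over 1.84.

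**Figure D2:**
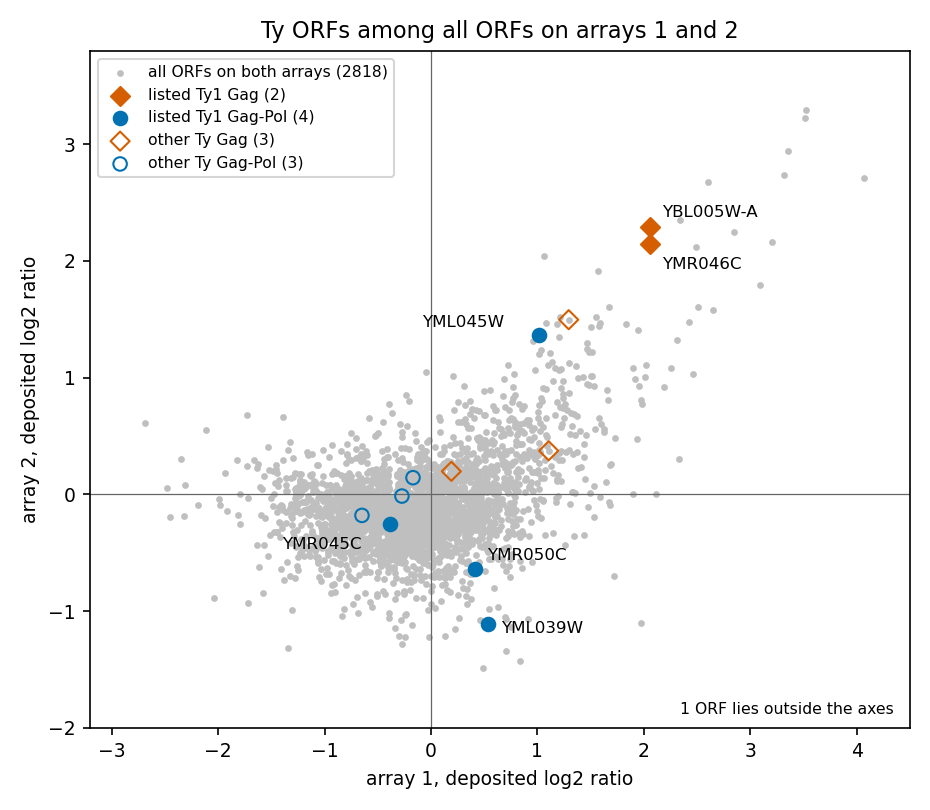
Deposited log2 ratios of array 1 (horizontal axis) and array 2 (vertical axis) for the 2818 ORFs on both, with 1 ORF outside the axes; diamonds are Gag ORFs, circles are Gag-Pol ORFs, filled symbols are listed Ty1 ORFs and open symbols other Ty ORFs. The 2 listed Gag ORFs lie at the upper right, YML039W and YMR050C lie at the lower right of the origin.

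Within an element the Gag and Gag-Pol ORFs could be set side by side. In the element of YMR046C and YMR045C, the Gag ORF had 2.06 and the Gag-Pol ORF −0.38 on array 1, and 2.14 and −0.25 on array 2. Gag-Pol minus Gag was −2.44 and −2.40 (mean −2.42 ± 0.033, SD, n = 2 arrays), so the ratio at the Gag spot was 5.35-fold that at the Gag-Pol spot. The SD here is that between 2 arrays and leaves out the spread between spots. Both ORFs lie on the same full-length transcript, and why their spots differ was not tested. With array 1 turned the other way the mean difference was 0.023. In the element of YML040W and YML039W the difference was −0.21, on array 1 alone. None of the 4 listed elements had both ORFs on all 3 arrays.

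On the array design 12 more Ty ORFs were found. They were sought after the values were seen, as nested Gag and Gag-Pol pairs in the gene table, with YAR010C and YAR009C added by name. Ty ORFs of other lengths, or under names absent from that table, would be missed. YBL005W-B is the Gag-Pol ORF of the element whose Gag ORF is YBL005W-A, and it had −0.65 on array 1 and −0.18 on array 2. Gag-Pol minus Gag in that element was −2.71 and −2.47 (mean −2.59 ± 0.17, SD, n = 2 arrays), or 6.01-fold between the spots. With array 1 turned the mean difference there was 0.12. In another element, whose genes are 1317 and 5314 bases long, Gag YCL020W had 0.19 on array 1 and 0.20 on array 2, and Gag-Pol YCL019W had −0.17 and 0.14. The difference in that element, −0.36 and −0.054, was smaller on both arrays. Its gene lengths differ from those of the listed ORFs, and whether it is Ty1 or another Ty family was not checked. In the pair YAR010C and YAR009C, whose Gag-Pol gene is shorter at 3591 bases, the order was opposite on array 1, with 1.11 for Gag and 1.48 for Gag-Pol.

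**Figure D3:**
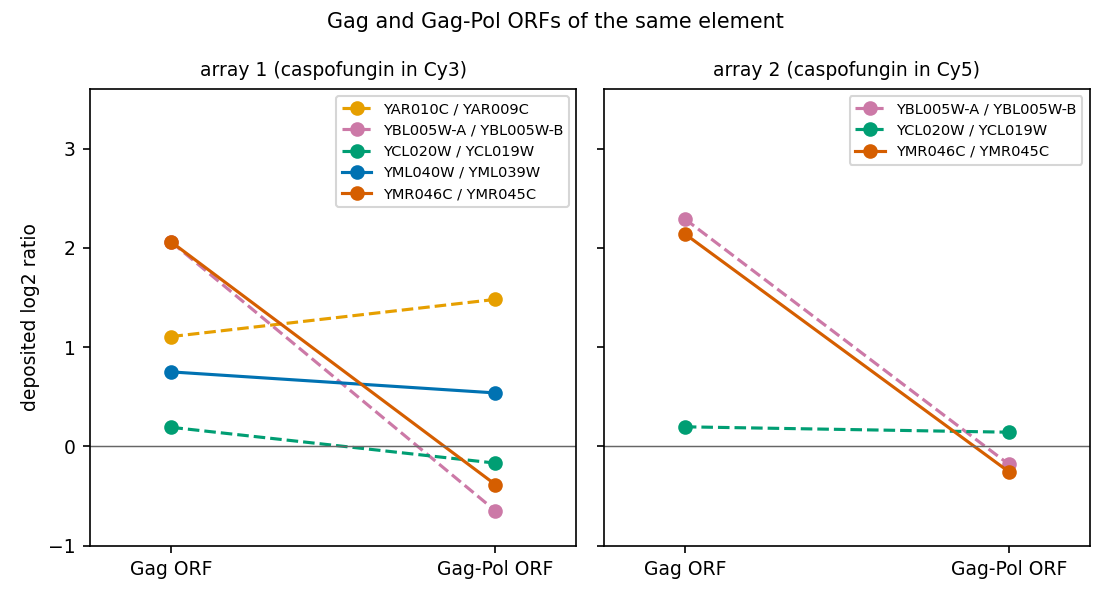
Deposited log2 ratio (vertical axis) of the Gag and Gag-Pol ORF of each element with both values, on array 1 (left) and array 2 (right). Solid lines are elements with both ORFs listed, and dashed lines are the other elements. The listed ORF YBL005W-A is on a dashed line because its Gag-Pol ORF, YBL005W-B, is not listed. The elements of YMR046C and YBL005W-A drop by more than 2 from Gag to Gag-Pol on both arrays, and the others differ by less than 0.4.

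The signs by class were counted over the 22 Ty ORFs found, listed ones included. As deposited, all Gag ORFs with a value were positive, 6 of 6 on array 1 (median 1.20, from 0.19 to 2.06) and 5 of 5 on array 2 (median 1.496, from 0.20 to 2.29). With array 1 turned, every sign on that array would be reversed, for these ORFs and for all others. The listed ORFs in these counts were chosen with their values known. Of the Gag ORFs outside the list, YBR012W-A had 1.29 and 1.496 on arrays 1 and 2, and YAR010C had 1.11 and 0.37. Of the Gag-Pol ORFs, 5 were positive and 5 negative on array 1, 2 positive and 5 negative on array 2, and 7 of 7 negative on array 4. YER160C had −0.27, −0.015 and −1.04 on arrays 1, 2 and 4, YHR214C-B had 0.18 and −2.29 on arrays 1 and 4, and YER138C had −1.16 on array 1 alone. On array 4 none of the 9 Gag ORFs and 7 of the 13 Gag-Pol ORFs had a value, beside 13.8% of all ORFs. For comparison, 36.1%, 33.4% and 19.1% of all values were positive on arrays 1, 2 and 4. Near-identical copies among them can bind each other's transcripts, so the counts are over spots and not over separate transcripts. The Ty family of the ORFs outside the list was not checked.

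In the limma fit of 3 arrays, 0 of the 3 listed ORFs that could be fitted were called at an adjusted p under 0.05, beside 0.277% of the 723 ORFs tested. The fit has a caspofungin and a dye term. All 3 were Gag-Pol ORFs, and none of the Gag ORFs entered. Their fitted log2 values were −0.17 for YMR050C, −0.35 for YML039W and −0.93 for YMR045C, each with the standard error of 0.73 that the fit shares over genes. The median of the 3 was −0.35 and that of all fitted ORFs was −0.36, while YMR045C lay below both. YML045W, without a value on array 4, was not fitted either. The value of YMR045C rested on array 4 and was −0.32 without it, while those of YMR050C and YML039W were −0.75 and −1.24 without array 1. Both arrays left there have the caspofungin RNA in Cy5, so dye and caspofungin cannot be told apart. None reached a fitted value of 2-fold with 1 sign on every array, which 13.1% of all fitted ORFs did.

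On arrays 1 and 2 alone, which keep the Gag ORFs, 3 of the 6 listed ORFs measured on both were at least 2-fold positive on each array, beside 1.92% of 2818 ORFs. The same 3 were the ones positive on both arrays, beside 20.5% of ORFs. These were YBL005W-A, YMR046C and YML045W. The other 3 were not 2-fold on both arrays in either direction, and at least 2-fold negative values on both were met by 0.0355% of all ORFs. The median of the 6 means was 0.54 against −0.18 for all ORFs, but none of the 6 lay near it. The means of YBL005W-A, YMR046C and YML045W were 1.19 to 2.17, and those of the other 3 were −0.32 to −0.11. Spots that cross-hybridise are not 6 separate observations. Since the members were chosen with these values known, the count supports nothing beyond itself. As given above, none of the means of YBL005W-A, YMR046C and YML045W was near 2-fold with array 1 turned. The size of these values as an effect of caspofungin therefore rests on the direction taken for array 1, and because that direction is unstated, dye and treatment cannot be told apart for these ORFs.

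The ORFs closest in pattern were searched by Euclidean distance over the arrays, outside the Ty ORFs. Over 3 arrays, with the median of the 3 Gag-Pol ORFs at 0.41, −0.64 and −1.37, the nearest of 718 ORFs were VMA8, a subunit of the vacuolar proton pump (distance 0.269), YMR173W-A (0.305), GSF2 (0.385), the ribosomal protein gene RPS18B (0.393) and FPR3, a nucleolar prolyl isomerase (0.402). Over arrays 1 and 2, with YBL005W-A and YMR046C averaging 2.06 and 2.22, the nearest of 2806 ORFs were SEC24, a COPII coat subunit (0.316), STT3, the catalytic subunit of oligosaccharyltransferase (0.446), and PMT2, a protein O-mannosyltransferase (0.575). VMA1 and ARE1 followed at 0.714 and 0.725. A likeness over 2 or 3 arrays is a description of those values only.

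Host genes were described from 7 lists with 93 genes, drawn up by processes and complexes related to Ty1. A role in Ty1 was not checked for each gene. Of these, 59 had a value on at least 1 array, 35 on both arrays 1 and 2, and 6 on all 3. On arrays 1 and 2 none of the 35 was at least 2-fold on both in either direction, beside 1.95% of all ORFs. Their median was −0.090, and that of all ORFs was −0.18. Means of host genes are given with array 1 as deposited. All 6 genes in the fit were negative, none was called, and 73.4% of all fitted ORFs were negative too.

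Among the Ty1 transcription factors, GCN4 was the one measured on all arrays, with −0.19, −0.43 and −0.20 on arrays 1, 2 and 4. The activators STE12 and TEC1 had values on array 1 alone, 0.62 and −0.085, as did MCM1 at −1.58 and MOT3 at 0.99, while the TATA-binding protein gene SPT15 had −2.55 on array 4 alone. In the mating and filamentation kinase module, the gene of the Ste12 inhibitor DIG1 had 0.97 and 0.57 on arrays 1 and 2, and that of DIG2 had −0.018 and −0.13. The kinase genes STE11, STE7 and FUS3 were measured on array 1 alone, at −1.28, −0.57 and −0.52, and STE50, which encodes an adaptor of Ste11, had −0.93 there.

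In the SAGA, SWI/SNF and SPT list, 3 of the 8 genes on arrays 1 and 2 had a positive mean. SNF6, a SWI/SNF subunit, had the highest, with 1.02 and 0.76. With array 1 turned its mean was −0.13, and the elongation factor gene SPT4 was highest at 1.06. SPT7 of SAGA was measured on all arrays, with −0.47, −0.044 and −2.38 and a fitted value of −0.84. In the list of host restriction and genome maintenance genes, 1 of 7 had a positive mean. This was PMR1, the Golgi calcium and manganese pump, with 1.48 and −0.10, so its value rested on array 1. PMR1 stands in this list but is not known as a restriction gene of Ty1.

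Of the RNA decay genes, 1 of 5 had a positive mean, PAT1, a decapping activator, with 1.04 and 0.83. LSM1 and DCP2, which act in the same decay step, had fitted values of −0.95 and −0.61, and their array 4 values were −2.78 and −1.73. Of the signal recognition particle genes, whose product is known to be needed for stable Gag, 2 of 5 had a positive mean. SRP54 had 0.74 and 0.24 on arrays 1 and 2, and SRP21 had a fitted value of −0.71. Ty1 integrates upstream of genes transcribed by RNA polymerase III, and 2 of 7 genes of that machinery had a positive mean. RPC40, whose product binds the Ty1 integrase, had 0.36, −0.12 and −0.81 on arrays 1, 2 and 4, with −0.050 in the fit.

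**Figure D4:**
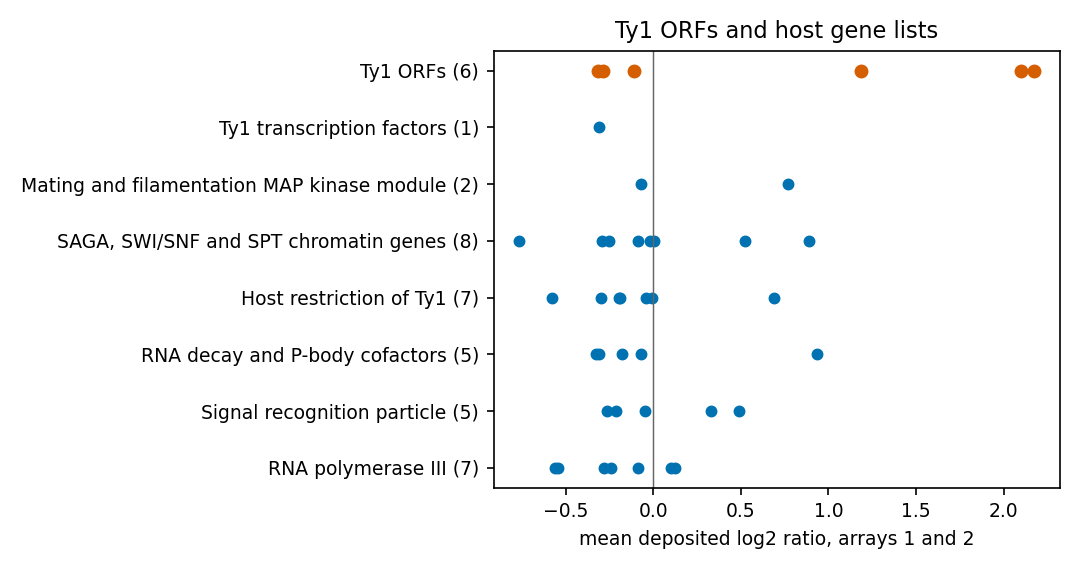
Mean deposited log2 ratio of arrays 1 and 2 (horizontal axis) for the 6 listed Ty1 ORFs measured on both (orange) and for each gene of the 7 host lists measured on both (blue; the number of genes is in parentheses). The 3 highest Ty1 ORFs, from 1.19 to 2.17, lie above every host gene with array 1 as deposited, where PAT1 is highest at 0.93. With array 1 turned these ORFs are at 0.041 to 0.18 and the host gene SPT4 is at 1.06.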

How the data were processed

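The authors deposited 1 log2 ratio per ORF and array. The sources used here do not give the scanner, background correction, normalization, centring, direction or the reason for empty cells. The log2 scale was read from the values: 2 raised to every deposited value was a multiple of 0.0001 within 0.01 of a step (100% of values on each array). The table has 6207 ORF rows and 2 control rows without values, and 5654 ORF names matched the RefSeq gene table by locus tag. That table was used for names, lengths and nesting of genes. No sequences were used here.

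Fits used limma 3.58.1 in R 4.3.3 on 723 ORFs with 3 values, with caspofungin and dye terms, 1 residual degree of freedom and Benjamini-Hochberg adjustment; the script was tested on simulated data. The 3 arrays come from 2 cultures and the fit counts them as independent, so its errors are too small if cultures differ. The number of arrays limits precision. The members and lists were chosen with earlier results of these data known. The genes named are the listed ORFs, all other Ty ORFs found that had a value, the 5 ORFs nearest in pattern and genes of each host list. For a host list the rule was up to 3 genes with the largest fitted value. Where none was fitted, it was genes with a value on any array. The host genes STE12, TEC1, MCM1, MOT3, SPT15, SNF6, SPT4, PAT1 and SRP54 fall outside this rule. They were named after their values were seen, and so was PMR1 out of its list. Ty relatives were to be found by blastp of proteins, which were not used here, so nested genes of 1200 to 1500 bases at the start of genes of 4600 to 5500 bases were taken. Copies with identical proteins were likewise limited to EFT1 with EFT2 and TEF1 with TEF2.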

Additional observations from a re-analysis of the deposited data

How the results depend on the processing

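Each ratio already pairs the treated and untreated part of 1 culture. No paired analysis was possible beyond that, because the 3 arrays form 1 group with no shared numbers. The median fitted value of the listed ORFs, −0.35, moved within the spread of the arrays but not always with its sign kept: it was −0.58 with array 1 turned, 0.35 with all signs turned, 0.036 after median centring, −0.26 after centring and scaling, −0.64 after quantile normalization, −0.65 without the dye term, −0.83 with arrays 1 and 2 averaged, −0.76 with arrays 1 and 4 averaged, 0.51 over the 6 ORFs on array 1 and at least 1 other, −0.22 with copies collapsed by class, −0.49 as a mean, and −1.24 to 0.54 when each array was dropped in turn. The value of 0.54 came without array 4, where 6 listed ORFs instead of 3 entered. The median of all ORFs was −0.36, and 0.029 after median centring. Gag-Pol minus Gag in an element, −2.42 on arrays 1 and 2, was 0.023 with array 1 turned, −4.35 after centring and scaling, −2.37 after quantile normalization, and −2.40 to −1.33 with array 1 or 2 left out, where −1.33 is the median of 2 elements. Settings that need array 4 gave no such value, and centring each array leaves it as it was.

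The 2 genes called became 0 with array 1 turned, after centring, scaling or quantile normalization, without the dye term, with arrays 1 and 2 averaged and with ORFs on array 1 and at least 1 other, 12 with arrays 1 and 4 averaged, 23 at an unadjusted p under 0.05, and 0 to 25 in limma when each array was dropped in turn: 0 without array 1, 0 without array 2 and 25 without array 4. Without array 1 the caspofungin RNA was in Cy5 on both arrays left, so a dye term could not be told apart from caspofungin. With other sets of 2 arrays or 2 averaged cultures a dye term would leave no residual. The dye term was dropped in all these fits, so they differ from the 3-array fit in both respects. The 95 ORFs of at least 2-fold with 1 sign became 13 with array 1 turned, 61 after centring, 233 with arrays 1 and 2 averaged, 178 with ORFs on array 1 and at least 1 other, 254 at a limit of 1.5-fold and 12 at a limit of 3-fold. Leaving out each array gave 104 to 255 such ORFs (196 without array 1). The cause of these changes was not tested, beside the larger number of ORFs tested without array 4. The comparisons on arrays 1 and 2 and the choice of other Ty ORFs were added after seeing the data.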
